A study of Mus musculus with 19 samples.

Results

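The comparison described here is between the lungs of 5 mice given the lowest dose of benzo(a)pyrene (BaP), 25 mg/kg/day, and the lungs of 5 mice given vehicle alone, out of 19 mice in the whole series. The 2 groups were taken from the sample titles, without reference to any measured value. BaP is a polycyclic aromatic hydrocarbon formed in combustion, and the doses were given by gavage every day for 28 days. Part of the lung was collected 3 days after the last dose. Every mouse was a male of 25 weeks from the transgenic strain 40.6 (the MutaMouse, which carries a reporter gene for scoring mutations), controls included, and the strain is the only genotype studied. The control mice are numbered 1 to 5 in the labels and the mice at 25 mg/kg/day 6 to 10. The other arrays, 4 mice at 50 and 5 mice at 75 mg/kg/day, enter here through a shared estimate of the spread and as values set beside those of the lowest dose. One array was used per mouse, on which the lung RNA carried the red dye Cy5 and a commercial pool of RNA from mouse cell lines carried the green dye Cy3. A value is therefore the log2 ratio of lung over reference for one gene in one mouse. Only differences of that ratio between mice are read below, since the ratio itself also depends on how much of the transcript the reference holds. The lung is a mixture of cell types, and in such bulk RNA fewer cells of a type and less RNA per cell cannot be told apart.

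BaP enters cells, binds the aryl hydrocarbon receptor (AhR) and induces enzymes such as Cyp1a1 and Cyp1b1, which together with the epoxide hydrolase Ephx1 turn it into a diol epoxide that forms bulky adducts on DNA. Damaged DNA stabilises the transcription factor p53, which acts mainly through its target genes rather than through its own transcript. Those targets include inhibitors of the cell cycle (Cdkn1a, Ccng1), promoters of cell death (Bax, Phlda3, Ei24, Trp53inp1), a secreted stress cytokine (Gdf15) and the ubiquitin ligase Mdm2, which returns p53 to a low level.

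The arrays of both groups had overlapping counts of spots with clear signal, but single controls stood apart in some gene lists. Median lung intensity above background ran from 15 to 46.5 in the controls and from 16 to 32 in the treated mice. In the lung channel, the controls had 19777 to 26034 spots with signal well above background, and the mice at 25 mg/kg/day had 20786 to 25559 (exact two-sided permutation test of the difference in means, p = 0.46; 5 mice against 5 cannot go below 0.0079). The surfactant genes Sftpc, Sftpa1 and Sftpb and the type 1 cell gene Ager were well above background on all 10 arrays. So were 13948 genes in all, the heart muscle genes Myl7 and Tnnt2 among them, so this signal does not by itself identify the tissue. Control 5 stood apart. Its mean ratio over 12 skeletal muscle genes was 3.54 log2 units above the mean of the controls, where the other 4 controls lay between -1.19 and -0.59 and the 5 treated mice between -1.501 and -1.26. Control 4 stood apart in its interferon response genes (0.83, against -0.28 to -0.14 in the other controls) and was the highest control for adipose genes (1.27). Some of the values that moved with controls 4 and 5 are given with and without them. Of these 10 arrays, only that of control 5 lay on slide 6 and was scanned on day 5. Only that of mouse 8 lay on slide 3 and was scanned on day 1. The part of slide or scan day in the values of those mice was not tested.

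Few genes were called at 25 mg/kg/day, and in the main fit they were mostly p53 targets that rose by between 1.46-fold and 2.57-fold. Of 19314 genes tested, 10 passed an adjusted p of 0.05 (0.0518%; limma on all 19 arrays, Benjamini-Hochberg adjustment over all genes). There were 8 rises (0.0414%) and 2 falls (0.0104%). The rises were Cdkn1a, Gdf15, Phlda3, Ephx1, Trp53inp1, BB653684 (a transcript known here only by its accession, with no gene symbol in the table used), Bax and Ei24. The falls were Matn2, a protein of the extracellular matrix, and Ephb2, a receptor tyrosine kinase for ephrin-B ligands. Relaxing the threshold to an adjusted p of 0.1 gave 13 genes (11 higher, 2 lower) and to 0.2 gave 44 genes (37 higher, 7 lower), while 1509 genes had an unadjusted p under 0.05 (939 higher, 570 lower). The split of 8 rises to 2 falls moved with the signal used: 36 to 0 on the scanner software's own processed signals, 9 to 0 without background subtraction, 11 to 1 on the lung channel alone, and 35 to 6 with slide as a random block. Under median centring without loess 0 genes were called, and all 10 lost their call. The 31 genes added with slide as a random block held only Ccng1 from the p53 lists. The 28 added on processed signals held only Aen. Most genes called under either of those settings were therefore not on the p53 lists.

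**Figure D1:**
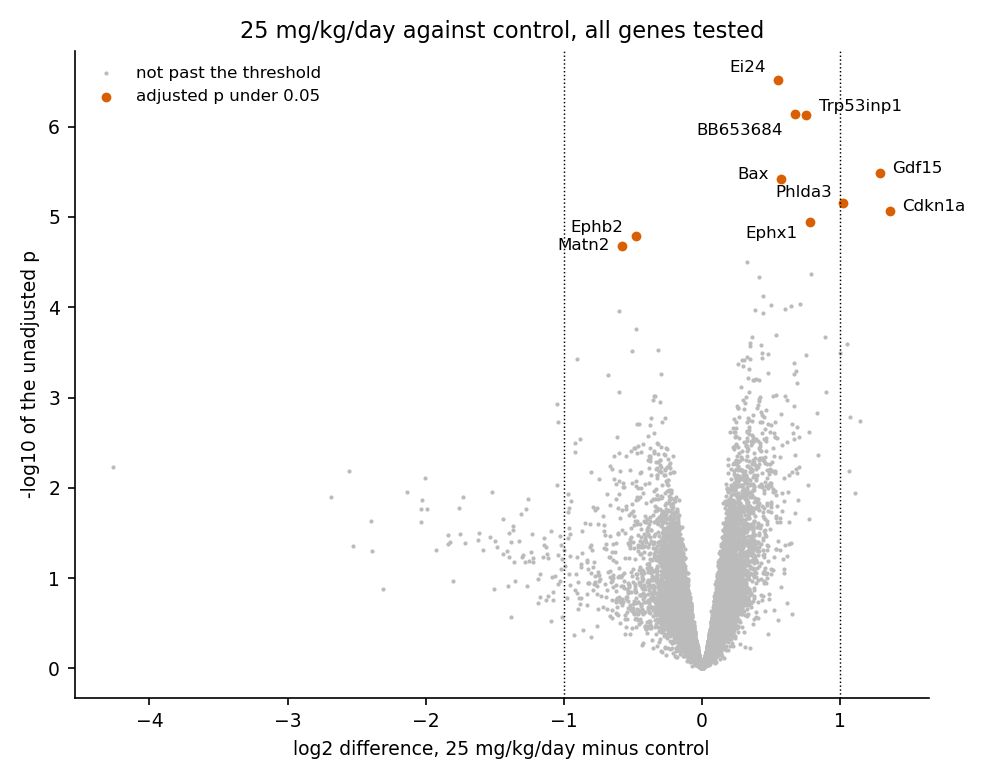
Each point is one of the 19314 genes tested; the horizontal axis is the log2 difference of 25 mg/kg/day minus control (5 mice each), the vertical axis the -log10 of limma's unadjusted p, and dotted lines mark 2-fold. The 10 genes past an adjusted p of 0.05 (orange, named) lie between -0.58 and 1.36, while of the 84 genes beyond 2-fold on the left 0 were called.

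Among the genes of cell cycle arrest, Cdkn1a, the p21 inhibitor of cyclin-dependent kinases, had the largest rise of the 10 called genes. Its log2 ratio was -1.66, -1.30, -1.38, -1.44 and -0.95 in controls 1 to 5 and 0.55, -0.09, 0.23, -0.09 and -0.55 in mice 6 to 10. The lowest treated mouse was 0.40 log2 units above the highest control, so the groups did not overlap, and mouse 6 was the highest and mouse 10 the lowest. The difference was 1.36 ± 0.23 (SE, n = 5 each; 2.57-fold, 95% interval 1.85 to 3.56; adjusted p = 0.024, limma). Ccng1, cyclin G1, did not overlap either, with -0.46, -0.27, 0.21, 0.11 and 0.53 in the controls and 1.38, 0.84, 1.03, 0.58 and 0.73 in the treated mice, but mouse 9 was close to control 5 and the difference of 0.89 ± 0.19 missed the threshold (adjusted p = 0.17, limma). A second probe of Ccng1 gave 0.63. Of the 8 members of the arrest list that were tested, 1 rose, and the others lay between -0.05 (Plk3, a stress kinase) and 0.89. The list's median was 0.14, against 0.01 over all genes.

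The promoters of the called genes are shown where they hold a match to the p53 response element, because 7 of the 8 rises are on the lists of p53 targets. The element is a pair of half-sites of 10 bases that reads alike on both strands. A match was allowed up to 2 mismatches outside the fixed C and G of each half-site and a spacer of up to 13 bases. RefSeq promoters (GRCm38.p6, 250 bases before to 50 after the start) were at hand for 7 of the 10 called genes, 9 promoters in all, and 2 of them (Cdkn1a and Bax) held a match, against 4.09% of all 32851 promoters. In the Cdkn1a promoter (chr17:29090866-29090977, plus strand) the capitals mark a pair of half-sites with 0 mismatches and a spacer of 12 bases, at positions -73 to -42 from the start, and an overlapping pair of adjoining half-sites with 1 mismatch at -51 to -32. In the Bax promoter (chr7:45467039-45467139, minus strand) the pair has 2 mismatches and a spacer of 1 base, at positions -201 to -181.
Cdkn1a: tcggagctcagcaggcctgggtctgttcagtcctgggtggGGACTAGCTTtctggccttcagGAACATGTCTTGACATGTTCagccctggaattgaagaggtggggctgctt
Bax: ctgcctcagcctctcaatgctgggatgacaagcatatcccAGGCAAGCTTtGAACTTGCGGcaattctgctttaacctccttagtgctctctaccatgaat
The core of the AhR element, GCGTG on either strand, occurred in 3 of the 9 promoters (Ei24, Ephb2 and the other Cdkn1a start), against 32.4% of all promoters, and in neither sequence printed here. A match describes the letters in the window and says nothing of binding.

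The cell death genes held 4 of the 8 rises. Bax, which permeabilises the mitochondrial outer membrane, had ratios of -0.92, -0.75, -0.77, -0.90 and -0.83 in the controls and of -0.11, -0.14, -0.25, -0.47 and -0.33 in the treated mice. The control values spanned 0.17 log2 units and the gap between the groups was 0.28, so every treated mouse was clear of every control. The difference was 0.57 ± 0.09 (1.49-fold; adjusted p = 0.015, limma; 0.055 with slide as a fixed block). Phlda3, which restrains Akt signalling, was more variable: 0.41, 0.12, 0.13, -0.21 and 0.62 in the controls and 1.66, 1.34, 1.45, 0.94 and 0.77 in the treated mice. Control 5 and mouse 10 were 0.15 apart, the narrowest gap of the 10 called genes, and the difference was 1.02 ± 0.17 (2.02-fold; adjusted p = 0.023, limma).

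Ei24 and Trp53inp1 had the widest gaps between the groups of the 10 called genes. Ei24, an endoplasmic reticulum protein linked to apoptosis and autophagy, had 0.01, 0.07, -0.05, -0.05 and 0.03 in the controls and 0.63, 0.51, 0.63, 0.48 and 0.51 in the treated mice. The 5 controls spanned only 0.12 and the 5 treated mice 0.15, and the groups lay 0.41 apart. The difference of 0.55 ± 0.07 (1.46-fold, 95% interval 1.32 to 1.62) had the lowest SE of the 10 called genes (adjusted p = 0.0048, limma). Trp53inp1, a stress-induced partner of p53, had 1.02, 0.90, 0.98, 1.05 and 0.65 in the controls and 1.899, 1.67, 1.60, 1.71 and 1.48 in the treated mice. The groups lay 0.43 apart, with no overlap, and the difference was 0.75 ± 0.10 (1.69-fold; adjusted p = 0.0048, limma), with 0.65 from a second probe.

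The remaining members of the cell death list did not pass the threshold. Of 14 tested, 4 rose and 0 fell, 11 lay above 0 and the median was 0.22. Aen, an exonuclease of apoptotic DNA, differed by 0.65 ± 0.21, Pmaip1 (Noxa) by 0.61 ± 0.18 and Bbc3 (Puma) by 0.21 ± 0.17, each with overlap between the groups. The death receptors differed by 0.09 (Fas) and -0.01 (Tnfrsf10b). The lowest member was Perp, a desmosomal protein of epithelia, at -0.85 ± 0.35, which was -0.39 without control 5 (2.45 there, -0.19 to 0.66 in the other controls).

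Secreted and metabolic p53 targets gave 2 further rises. Gdf15, a secreted stress cytokine of the TGF-beta family, had -1.80, -1.64, -1.44, -1.45 and -2.03 in the controls and 0.05, -0.24, -0.19, -0.48 and -1.09 in the treated mice. Mouse 10 was well below the other 4 treated mice and still 0.35 above the highest control. The difference was 1.28 ± 0.20 (2.44-fold, 95% interval 1.83 to 3.24; adjusted p = 0.015, limma; 0.055 with slide as a fixed block and 0.0049 as a random block). Ephx1, the microsomal epoxide hydrolase that takes part in activating BaP, is on this list and on the BaP metabolism list. Its ratios were -0.23, -0.05, 0.05, 0.27 and 0.39 in the controls and 0.65, 0.97, 1.24, 0.65 and 0.84 in the treated mice. The groups lay 0.26 apart and the difference was 0.78 ± 0.13 (1.72-fold; adjusted p = 0.027, limma), with 0.70 from a second probe. Of the 10 members tested, 2 rose and the others lay between -0.29 (Ak1, an adenylate kinase, 0.10 without control 5) and 0.48 (Sesn2, a regulator of mTOR under stress), with a median of 0.15.

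Feedback and repair targets of p53 showed no call. The Trp53 transcript itself differed by 0.00 ± 0.09, with a 95% interval of -0.18 to 0.19. Mdm2 had -0.69, -0.65, -0.58, -0.45 and -0.43 in the controls and -0.23, -0.27, -0.36, -0.28 and -0.28 in the treated mice. Those groups did not overlap, by a narrow margin, but the difference of 0.27 ± 0.14 had an adjusted p of 0.66 (limma), and a second probe gave 0.10. Zmat3, an RNA-binding target of p53, was the highest of the 7 feedback genes at 0.37 ± 0.13, and Mdm4, an inhibitor of p53, was the lowest at -0.08 ± 0.10. All 5 repair genes lay above 0, between 0.09 (Ercc5) and 0.23 (Polk, a polymerase that copies past bulky adducts), and 0 passed the threshold. Over the 5 p53 lists together, 7 of 44 genes rose (15.9%, against 0.0414% of all genes), 0 fell, 36 lay above 0, and the median difference was 0.11. The lists were drawn up with earlier results of these mice known, so their count is not independent evidence.

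**Figure D2:**
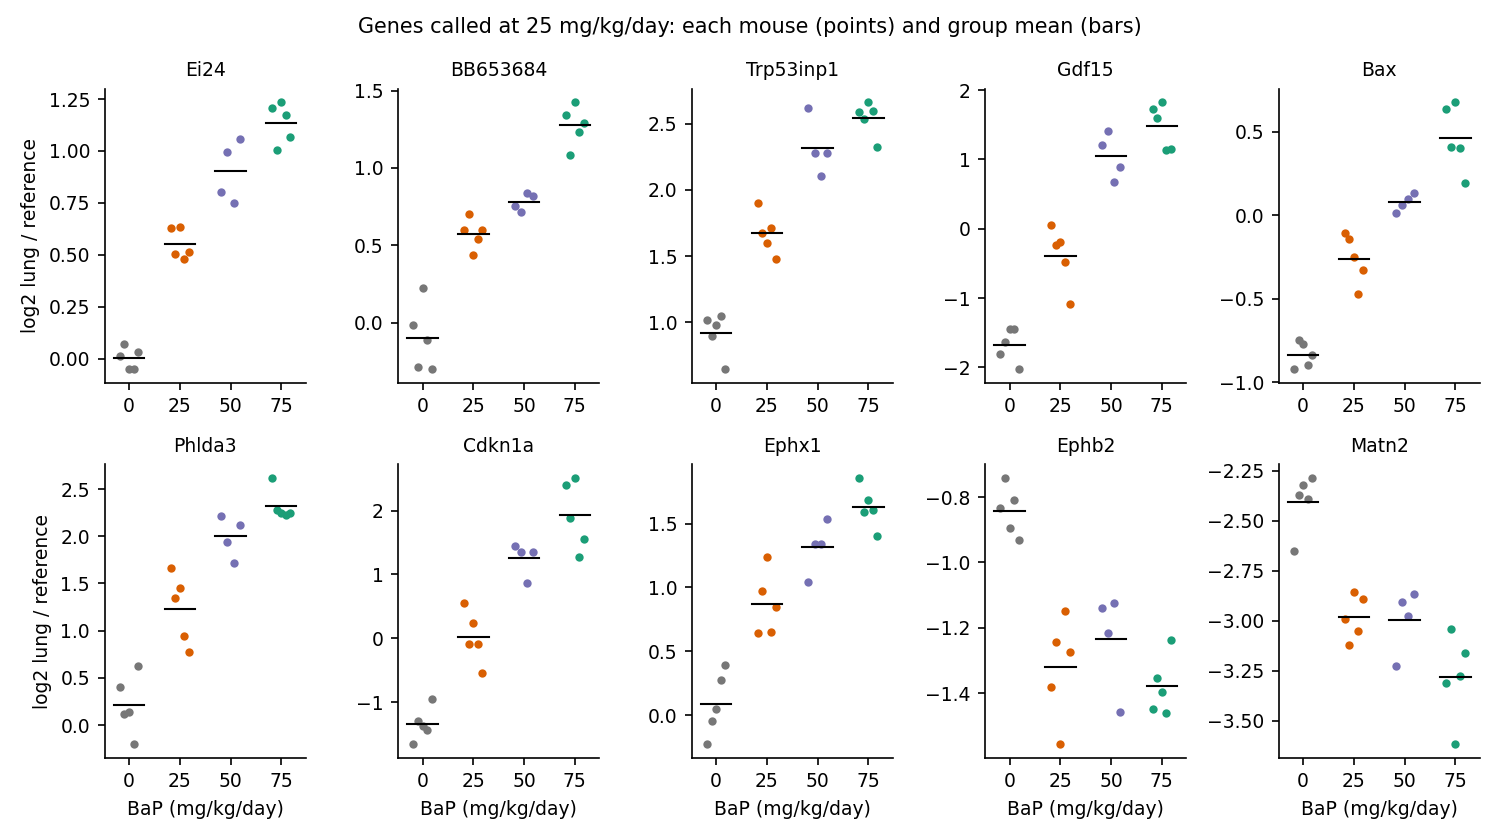
Each panel shows one of the 10 genes called at 25 mg/kg/day, with the log2 ratio of lung over reference of each mouse (points; 5, 5, 4 and 5 mice) against the daily dose of BaP and the group mean (bar). In every panel the 5 mice at 25 mg/kg/day are clear of the 5 controls; the 8 rises continue upward with dose, while Ephb2 is no further from control at 50 (-0.39) than at 25 mg/kg/day (-0.48).

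The transcript BB653684 rose with little spread among the treated mice, 0.60, 0.70, 0.44, 0.54 and 0.60, against -0.02, -0.29, 0.23, -0.11 and -0.30 in the controls. The difference was 0.67 ± 0.09 (1.59-fold; adjusted p = 0.0048, limma) and the groups lay 0.21 apart.

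Both falls were smaller than 1.5-fold. Ephb2 had -0.83, -0.74, -0.90, -0.81 and -0.93 in the controls and -1.38, -1.24, -1.56, -1.15 and -1.27 in the treated mice, a difference of -0.48 ± 0.08 (1.39-fold lower; adjusted p = 0.035, limma). Its spot was well above background on 4 of the 5 treated arrays, and a second probe, not well above background on any array, gave 0.02. Matn2 had -2.65, -2.37, -2.32, -2.39 and -2.28 in the controls and -2.99, -3.12, -2.86, -3.05 and -2.89 in the treated mice, a difference of -0.58 ± 0.10 (1.49-fold lower; adjusted p = 0.040, limma). In both genes the groups were about 0.21 apart.

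The size of the differences varied among the treated mice. All 10 called genes had groups that did not overlap, against 1.45% of all genes tested. The sign was therefore also the same in every treated mouse and on every slide shared by both groups. The 10 were selected by a test on these same values, so their separation is not independent evidence of consistency. Over the 8 rises, mouse 6 was on average 1.08 log2 units above the control mean and was the highest treated mouse for 5 genes. Mouse 10 was 0.62 above it and the lowest for 4 genes, and mice 7, 8 and 9 were 0.93, 0.99 and 0.75 above it.

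The calls depended on single mice even though the differences did not. Leaving out one mouse at a time moved Cdkn1a between 1.22 and 1.5, Gdf15 between 1.18 and 1.46, and Phlda3 between 0.91 and 1.13. Ei24, Trp53inp1 and BB653684 were called whichever mouse was left out, and they were the only calls without mouse 7 and the only calls without mouse 8. Without control 4 there were 4 calls, those and Gdf15, and without control 2 or control 3 there were 5, with Bax. Without control 1, mouse 6 or mouse 9 there were 8 calls each, without mouse 10 there were 7, and without control 5 there were 13, counting genes outside the 10. Without controls 4 and 5 together there were 8 calls, of which Ei24, Trp53inp1, Phlda3 and Ephx1 were among the 10. With single mice left out, Matn2 was called in 1 and Ephb2 and Cdkn1a in 2 of these 10 fits.

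Set beside the higher doses, the lowest dose gave the smallest differences for the rises. The comparisons with control share the same 5 controls, so each is given as its own value. Cdkn1a differed from control by 1.36 at 25, 2.60 at 50 and 3.28 at 75 mg/kg/day, Gdf15 by 1.28, 2.72 and 3.16, and Ei24 by 0.55, 0.90 and 1.13. For Matn2 the values were -0.58, -0.59 and -0.88, and for Ephb2 they were -0.48, -0.39 and -0.54, so 9 of the 10 called genes were further from control at 50 than at 25 mg/kg/day and all 10 at 75. The direct tests between doses, in which the controls enter through the shared estimate of the spread, gave 2 genes at 50 against 25 mg/kg/day (0.0104%), both higher at 50: Gdf15 by 1.44 ± 0.21 (adjusted p = 0.031, limma) and Ces2e by 1.54 ± 0.24 (adjusted p = 0.038, limma). That count was 0 without mouse 7, 8 or 9 or without control 1 or 2, and 3 without control 5. It was 1 without any other single control or mouse at 25 mg/kg/day.

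At 75 against 25 mg/kg/day 110 genes passed (0.570%; 75 higher, 35 lower), and they included all 8 rises of the lowest dose. Cdkn1a was higher at 75 than at 25 by 1.92 ± 0.23 (adjusted p = 0.00032, limma) and Ephx1 by 0.76 ± 0.13 (adjusted p = 0.0083). The 2 falls did not differ beyond the threshold (adjusted p = 0.37 for Matn2 and 0.995 for Ephb2). Of the 44 p53 genes, 15 were higher at 75 than at 25 (34.1%) and 0 lower, and 8 of the 15 had not been called at 25 mg/kg/day. Psrc1, a spindle protein, differed from control by only 0.18 at 25 mg/kg/day and was a further 1.60 ± 0.20 higher at 75. Zmat3 was 0.37 above control at 25 mg/kg/day and 1.04 ± 0.13 higher at 75. The count of 110 fell to 60 without mouse 8 and to 55 without mouse 10.

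Genes of the AhR pathway were not called at 25 mg/kg/day. Of 12 tested, 0 passed, 4 lay above 0 and 8 below, and the median was -0.06. Cyp1a1 had 2.27, 0.99, 2.22, 0.89 and 0.84 in the controls and 0.27, 0.20, 1.21, 0.50 and 0.72 in the treated mice. Its probe was well above background on all 5 control arrays but on only 3 of the 5 treated arrays. All but mouse 8 lay below every control, and the difference was -0.86 ± 0.95 (adjusted p = 0.88, limma; 0.64 when the fit used these 10 arrays alone). The SE is wide because the fit shares its spread with the other doses, where mouse 20 at 75 mg/kg/day had a ratio of 7.30. Cyp1b1 differed by 0.09 ± 0.43 and was at its highest in mouse 8 (-0.57, against -1.07 to -0.96 in the other treated mice). Nqo1, a quinone reductase, differed by -0.10 ± 0.26 and Tiparp, a feedback inhibitor of AhR, by 0.06 ± 0.15. Ahrr, the AhR repressor, was the highest of the list at 0.11 ± 0.16, and its probe was not well above background on any control array.

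Of the 29 genes of BaP metabolism and conjugation, 1 rose, Ephx1, and the median was -0.03. Ces2e, a carboxylesterase, was the highest of the list at 1.00 ± 0.23, with no overlap between the groups (adjusted p = 0.18, limma; 0.033 with slide as a fixed block and 0.022 as a random block), but its probe was well above background on only 2 of 5 control arrays. Glutathione transferases lay on both sides of 0, from -0.65 (Gsto1) to 0.30 (Gstt1), and the lowest member was the sulfotransferase Sult1d1 at -0.66 ± 0.52, which was -0.14 without control 4. None of the 17 NRF2 and metallothionein genes passed. Hmox1 differed by 0.01 ± 0.17 and Sod3, an extracellular superoxide dismutase, was the highest at 0.16 ± 0.16. Mt2, a metallothionein, was the lowest at -1.05 ± 0.28 (adjusted p = 0.31, limma), with -2.56, -2.23, -2.35, -2.05 and -0.40 in the controls and -2.90, -3.20, -2.70, -3.07 and -2.97 in the treated mice. The groups did not overlap, and without control 5 the difference was -0.67.

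Other stress and damage lists had 0 calls. None of 20 excision repair and translesion genes passed (median 0.02), with Pcna, the sliding clamp, highest at 0.20 ± 0.08 and Poli lowest at -0.20 ± 0.12. Of 19 proliferation genes 0 passed (median 0.07), from Bub1 at -0.22 ± 0.20 to Mcm6, a subunit of the replicative helicase, at 0.49 ± 0.21. The integrated stress response (13 genes, median -0.13), acute inflammation (14 genes, median -0.14) and the interferon response (14 genes, median -0.27) had 0 calls. Their members ran from Aldh1l2 (-0.46) to Chac1 (0.25), from Saa3 (-0.88) to Icam1 (0.39) and from Oas2 (-0.81) to Rsad2 (0.44). Without control 4 Saa3 was -0.30 and Oas2 -0.46, and without controls 4 and 5 the interferon median was -0.02.

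The next 3 lists leaned one way without a call. Of 15 circadian clock genes, 12 lay above 0 (median 0.29), with Dbp, an output gene of the clock, highest at 1.06 ± 0.35 and the core factor Arntl lowest at -0.60 ± 0.22. Whether the mice were killed at the same time of day was not given in the sources used here. Of 77 ribosomal protein genes, 70 lay below 0 with a median of -0.15, from Rps21 (-0.31) to Rpl4 (0.17), but the median turned to 0.19 when arrays were centred on the median without loess, a scaling that moved the median of all genes to 0.15. Of 19 genes of fatty acid oxidation, 15 lay below 0 (median -0.19; 0.05 under median centring and 0.03 without controls 4 and 5), from Pdk4 at -1.31 (-0.70 without control 5) to Ehhadh at 0.18.

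**Figure D3:**
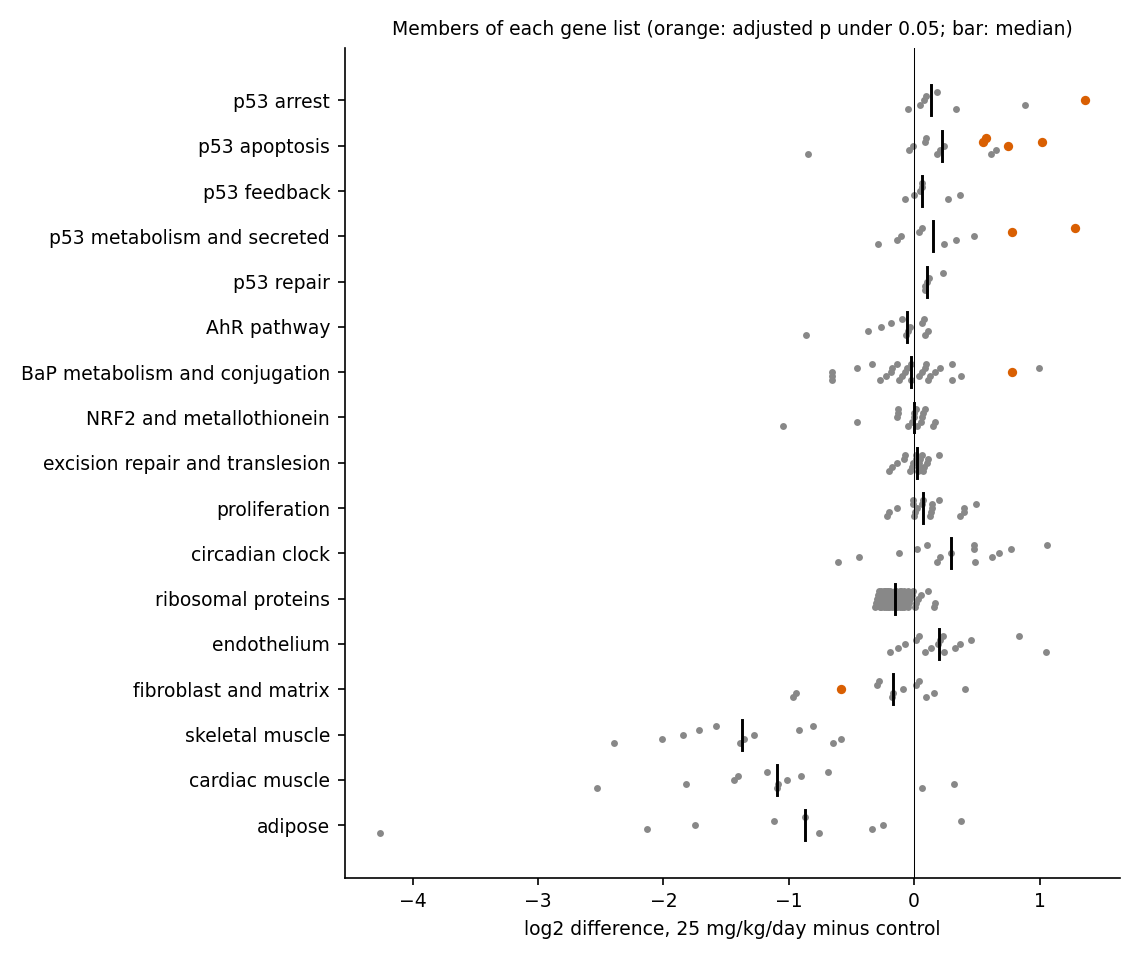
Each point is a gene; the horizontal axis is its log2 difference of 25 mg/kg/day minus control, rows are gene lists, bars are list medians, and orange marks an adjusted p under 0.05. The 8 orange points on the right belong to p53 lists or to Ephx1's second list, the 1 on the left is Matn2, and the muscle and adipose lists spread to the left with 0 calls.

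Lists of lung cell types had 1 call in all, Matn2 in the fibroblast list. Endothelial genes were mostly above 0 (13 of 16, median 0.20). Lyve1, a hyaluronan receptor of lymphatic and some lung endothelium, was highest at 1.05 ± 0.23 (adjusted p = 0.18, limma) and Ednrb lowest at -0.19 ± 0.22. Mmrn2, an endothelial matrix protein, had 5.02, 4.34, 5.54, 5.52 and 5.50 in the controls and 6.11, 5.92, 6.33, 6.12 and 5.62 in the treated mice. The groups did not overlap, but mouse 10 was close to control 3, and the difference of 0.84 ± 0.26 missed the threshold (adjusted p = 0.41, limma). Alveolar type 2 genes had a median of -0.05 (Sftpa1 -0.20 to Etv5 0.27) and type 1 genes 0.13 (Hopx -0.06 to Pdpn 0.22). Of 8 ciliated cell genes 7 lay below 0 (Dnah5 -0.33 to Rsph1 0.03). Fibroblast genes had a median of -0.17 (0.11 under median centring), from Lum at -0.97 ± 0.35 (-0.45 without controls 4 and 5) to Tcf21 at 0.40 ± 0.18. All 8 smooth muscle genes lay below 0, from Cnn1 (-0.92) to Smtn (-0.06), with a median of -0.41 that was -0.09 without controls 4 and 5 and -0.07 under median centring. Those controls were the highest for this list (0.32 and 0.56 above the control mean).

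Blood and immune lists had medians between -0.05 (NK cells, Gzma -0.43 to Nkg7 0.16) and 0.11 (erythroid genes, Hba-a1 and Hbb-bt at 0.03 to Slc4a1 at 0.77), with 0 calls. B cell genes ran from Blnk (-0.30) to Cr2 (0.19), T cell genes from Cd5 (-0.29) to Cd3d (0.28), alveolar macrophage genes from Chil3 (-0.96) to Siglecf (0.25), and neutrophil and monocyte genes from Mmp9 (-0.26) to Mmp8 (0.47). Mesothelial genes ran from Wt1 (-0.15) to Upk1b (0.22).

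**Figure D4:**
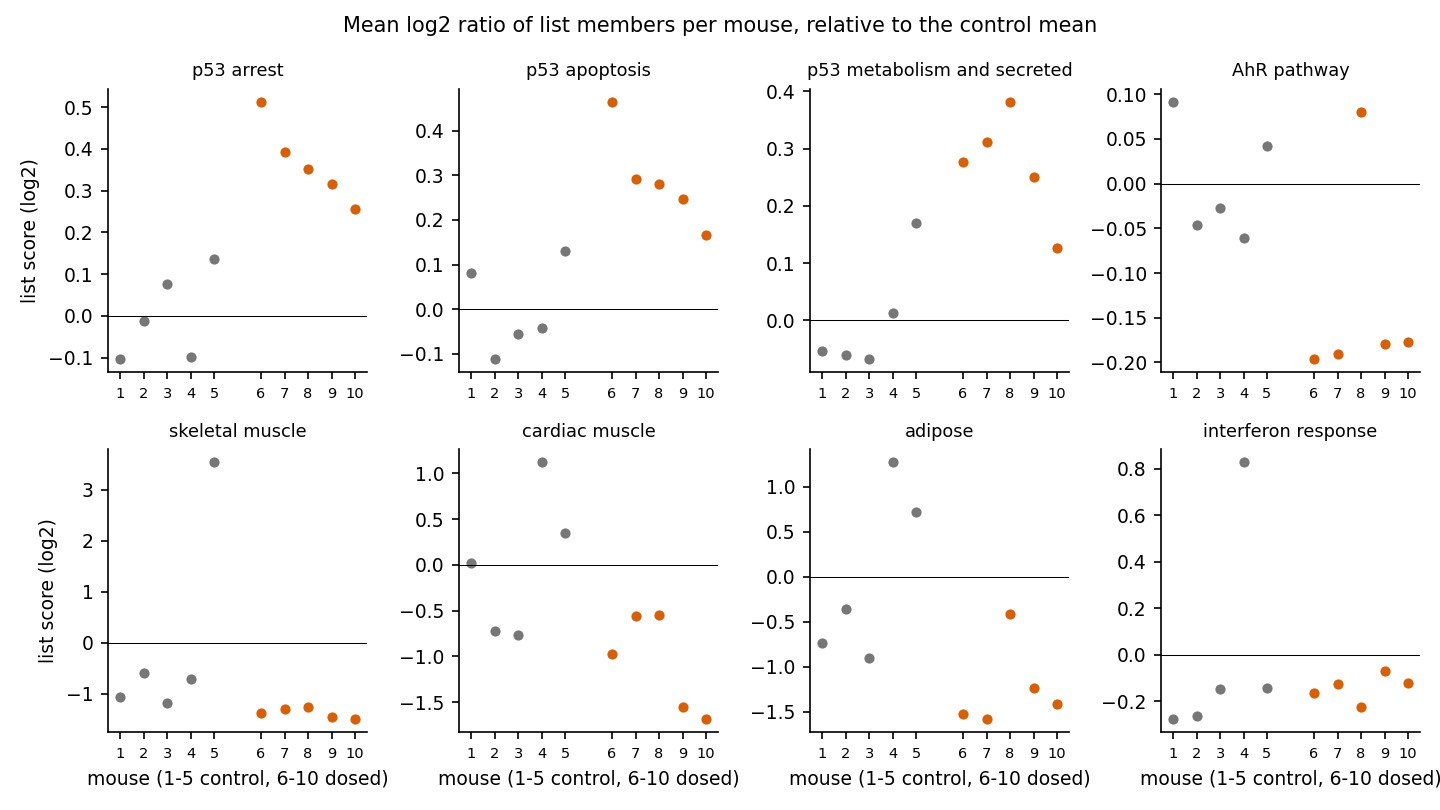
Each point is one mouse; the vertical axis is the mean log2 ratio over the members of a list, set to 0 at the mean of the 5 controls (grey), with mice 6 to 10 at 25 mg/kg/day in orange. The treated mice lie above all controls for the p53 arrest and cell death lists. Those lists hold genes called on these same values, so this separation is not independent evidence. For the p53 metabolism and secreted list, mouse 10 (0.13) lies below control 5 (0.17). Control 5 (skeletal muscle) and control 4 (interferon) are set apart from the other controls.

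With the offset of 50, which compresses the folds of dim spots, effect sizes were small across the array. The sizes and intervals given next hold for that setting. The SD of the log2 differences over all genes was 0.19 and the central 90% lay between -0.25 and 0.25. The 95% interval of a gene's difference had a median half-width of 0.23, or 1.17-fold, and lay wholly within 2-fold for 97.5% of genes and within 1.5-fold for 89.7%. Of the 284 genes that differed by at least 1.5-fold (57 higher, 227 lower) 6 were called, and of the 92 beyond 2-fold (8 higher, 84 lower) 3 were called, Cdkn1a, Gdf15 and Phlda3. The 89 uncalled genes beyond 2-fold had a median SE of 0.67, against 0.10 for the 10 called genes, and the groups overlapped in 78 of them.

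Of the 84 genes beyond 2-fold lower, 61 had controls 4 and 5 as their 2 highest controls. Control 5 was the highest control in 59 of the 84, and 36 were still beyond 2-fold without it. On the gene lists, 8 were skeletal muscle genes, 8 cardiac and 4 adipose, while 58 were on no list. Tnni2, the fast skeletal troponin I, had -0.18, 1.17, -0.51, 0.11 and 5.06 in the controls and -0.73, -1.01, -0.79, -0.89 and -0.96 in the treated mice. The groups did not overlap, yet the difference of -2.01 ± 0.68 became -1.03 without control 5. Acta1, skeletal actin, was 6.43 in control 5, between -1.60 and -0.37 in the other controls and between -2.46 and -1.83 in the treated mice, and its difference moved from -2.39 to -0.86. Cfd, the adipose protease adipsin, gave the largest difference on the array, -4.26 ± 1.37 (adjusted p = 0.41, limma), with 4.30, 5.42, 3.11, 6.90 and 6.33 in the controls and -0.17, -0.03, 4.69, -0.14 and 0.42 in the treated mice. Mouse 8 lay inside the control range, and the probe was well above background on only 2 of the treated arrays.

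The list medians moved with the same controls. Skeletal muscle genes, all 12 below 0, had a median of -1.37 (Acta1 -2.39 to Tnnt1 -0.58), and -0.48 without control 5. Cardiac muscle genes had -1.09 (Sln -2.53 to Ankrd1 0.32), and -0.60 without controls 4 and 5. Adipose genes had -0.87 (Cfd to Slc36a2 at 0.38), and -0.22 without those controls, and club cell genes -0.76 (Bpifa1 -2.31, or -1.29 without control 4, to Cldn10 0.25) and -0.24. Genes of stratified epithelium, chosen after their values were seen, were also high in control 5: Lor, loricrin, was 6.96 there and between 0.21 and 0.40 in the other controls, and Krt14 was 3.09 there and between -0.78 and -0.55. The part of tissue composition in the 84 differences was not tested. Refitting without control 5 left 42 genes beyond 2-fold lower and 10 higher, and 13 calls, 9 of them among the 10.

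**Figure D5:**
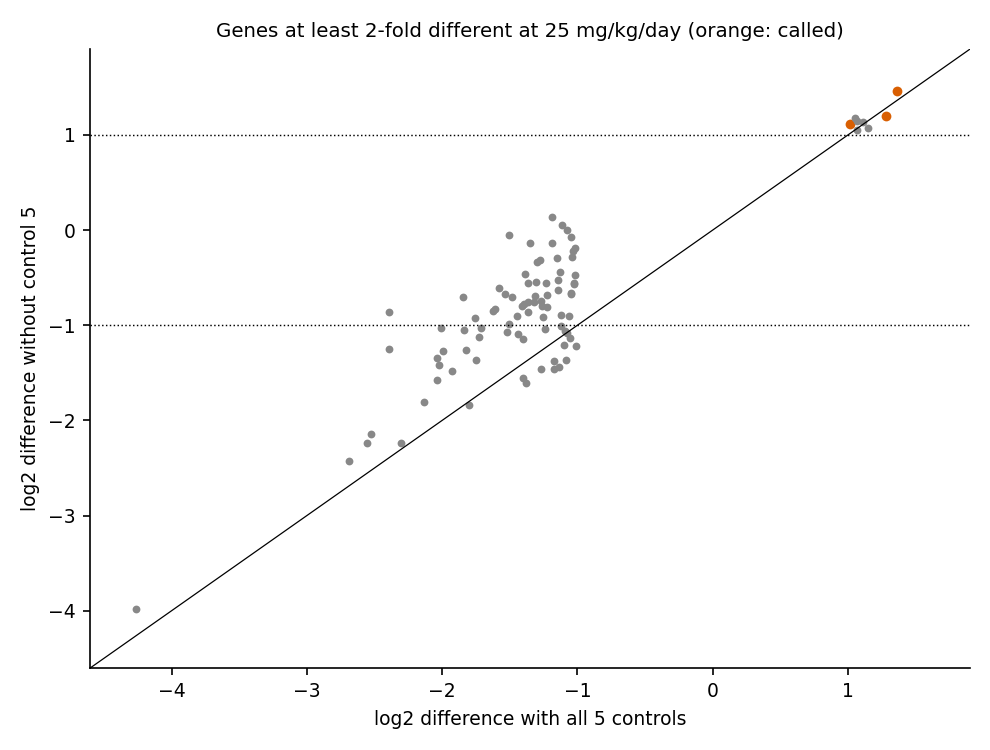
Each point is one of the 92 genes that differed by at least 2-fold at 25 mg/kg/day; the horizontal axis is the log2 difference with all 5 controls, the vertical axis the same without control 5, the solid line marks equal values and dotted lines 2-fold. On the left, 72 of 84 genes lie above the solid line, closer to 0 without control 5, and the 3 called genes (orange) stay near the line.

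Separation of the groups was also counted without a test. Of 19314 genes tested, all 5 treated mice lay above the control mean in 2166 and below it in 1949. The 5 comparisons share the same control mean and are not independent, so these counts do not by themselves show a shift. In 281 genes (1.45%) the groups did not overlap at all, 192 with the treated mice above (0.994%) and 89 below (0.461%), and 26 and 19 of these differed by at least 1.5-fold. Controls varied more than treated mice, with a median SD over genes of 0.19 against 0.15, and a larger SD in 65.5% of genes.

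Among genes with no overlap, an unadjusted p under 0.01 and clear signal in both groups, the largest differences above 0 after the called genes were Ccdc184, Ccng1, Mmrn2, Ndnf, Notch4, Treml4 and Tmem100. Notch4, a Notch receptor of endothelium, had 3.17, 2.82, 3.31, 3.29 and 3.81 in the controls and 3.90, 3.92, 3.83, 4.23 and 4.05 in the treated mice. The lowest treated mouse was only just above control 5, and the difference was 0.71 ± 0.14 (adjusted p = 0.11, limma; it was called without control 5). Ccdc184, a coiled-coil protein, differed by 1.07 ± 0.29, Ndnf, a secreted protein of vessels and neurons, by 0.75 ± 0.17, Treml4, a receptor of myeloid cells, by 0.70 ± 0.23, and Tmem100, an endothelial membrane protein of BMP signalling, by 0.69 ± 0.19. None of these passed the threshold, and at 75 mg/kg/day the values were 0.84 for Notch4, 2.48 for Ccdc184, 0.58 for Ndnf, 0.53 for Treml4 and 0.65 for Tmem100.

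The largest differences below 0 by the same rule were also short of the threshold. Rhou, a small GTPase, had -0.82, -0.67, -0.71, -0.20 and -0.58 in the controls and -1.22, -1.34, -0.96, -1.12 and -1.35 in the treated mice, a difference of -0.60 ± 0.12 (adjusted p = 0.11, limma). Rpl22l1, a paralog of a ribosomal protein, differed by -0.48 ± 0.10 at 25, -0.88 at 50 and -1.05 at 75 mg/kg/day. Slc2a1, the glucose transporter of most cells, differed by -0.51 ± 0.12 at 25, -0.42 at 50 and -0.33 at 75. The other members were Tnni2, Mt2, Spon2 (-0.92 ± 0.28), Cpe (-0.64 ± 0.20), Scara5 (-0.60 ± 0.18), Pdlim4 (-0.55 ± 0.17), Scara3 (-0.51 ± 0.17) and Septin5 (-0.49 ± 0.15). In each of Tnni2, Mt2, Spon2, Scara5, Pdlim4, Scara3 and Septin5 a single control was far above the others.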

How the data were processed

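Lung RNA of 19 mice was hybridised against a common reference on 2-colour Agilent arrays, 1 array per mouse with no dye swap. Per the file headers, the deposited spot intensity of both channels was written by Feature Extraction 10.7.3.1 (45018 spots an array, 43379 without the control spots). The table deposited by the authors holds log2 ratios per spot. Against ratios of the median spot intensities, taken after loess without background subtraction, its columns had r of 0.995 to 0.998. The medians of its columns were -0.053 to -0.033, and its centring is unknown.

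Median spot intensities were corrected with normexp (offset 50) and loess in limma 3.58.1 under R 4.3.3. The offset compresses folds of dim spots. Outlier spots (0.29%) were left out, 0 spots were saturated, and spots of a probe were averaged. Probes were kept (24499 of 41174) if the lung signal was well above background on 4 or more of 19 arrays, and the brightest probe by mean lung signal stood for its gene, giving 19314 genes with 23 missing values. Symbols came from a RefSeq table (GRCm38.p6) by accession, for 56.77% of probes. The number of arrays limits the precision. Groups were taken from the titles. A limma fit with 1 mean per group over all 19 arrays gave every contrast, with Benjamini-Hochberg adjustment and a threshold of 0.05. The genes and lists were chosen with earlier results of these data known. Genes named were those past the threshold, the 12 largest rises and 12 largest falls with no overlap and an unadjusted p under 0.01, the extremes of each list, and 7 genes of the AhR and p53 pathways. The arrays lay on 6 slides, numbered by their barcodes. Alternatives covered background correction, normalization, the filter on dim probes, slides, array weights, the deposited table and leaving out mice. Leaving out controls 4 and 5 together was chosen after seeing the data.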

Additional observations from a re-analysis of the deposited data

Results flagged for a closer look

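Of 136 groups of 5 values that were checked, 12 held a mouse far from the other 4 (gap over range above 0.71), and chance flags about 1 group in 20. In log2 ratio, control 5 was far above the other controls for Mt2 (-0.40, others -2.56 to -2.05), Septin5 (-0.91, others -1.87 to -1.66) and Scara5 (0.11, others -0.83 to -0.58). Control 4 was far above them for Pdlim4 (-0.61, others -1.66 to -1.51) and Scara3 (0.0316, others -0.84 to -0.63), and control 1 for Spon2 (0.21, others -1.30 to -1.04). Among the treated mice, mouse 7 was above the others for Ndnf (4.36, others 3.91 to 4.00) and mouse 8 for Cyp1b1 (-0.57, others -1.07 to -0.96).

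In list means, control 5 stood at 3.54 for skeletal muscle (others -1.19 to -0.59) and control 4 at 0.83 for the interferon response (others -0.28 to -0.14). Mouse 8 stood at 0.08 for the AhR pathway (others -0.20 to -0.18), and mouse 9 at 0.0298 for p53 repair (others 0.14 to 0.17).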

How the results depend on the processing

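The count of 10 genes called at 25 mg/kg/day was 36 on the scanner software's processed signals, 41 with slide as a random block, 5 when the fit used only these 10 arrays and 0 under median centring without loess, where 539 genes had an unadjusted p under 0.05. It was 8 to 14 under the other settings, and 3 to 13 when each mouse was left out in turn. In the fit on only these 10 arrays, 3 of the 10 genes kept their call (Cdkn1a, Ei24 and Trp53inp1), and Ces2e and Tspan15 were added. Ei24 and Trp53inp1 were called in 24 of 25 alternatives, BB653684 in 22, Gdf15 in 19, Bax in 18, Phlda3 in 17, Ephx1 in 15, Cdkn1a in 14, Ephb2 in 8 of 24 and Matn2 in 6 of 25, and 0 of the 10 changed sign. Among these alternatives, a quantile scaling of the mean intensity of spots after loess leaves the log2 ratios unchanged, so its calls were fixed in advance. Of the 85 uncalled genes named by the rule, 18 changed sign under at least 1 alternative. The cause was not tested.

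The count of 2 at 50 against 25 mg/kg/day was 0 with an offset of 10, on processed signals, under median centring, without a filter on dim probes and on the deposited table, and 1 without background subtraction, with the stricter filter, with slide as a fixed block and without controls 4 and 5. It was 0 to 3 with a control or a mouse at 25 mg/kg/day left out. The count of 110 at 75 against 25 mg/kg/day was 66 with an offset of 10, 12 under median centring and 70 on the lung channel alone. That count was 294 with slide as a fixed block, 298 as a random block and 295 with array weights. With a control or a mouse at 25 mg/kg/day left out it was 55 to 112. Mice at 50 and 75 mg/kg/day were not left out in turn. The 281 genes with no overlap became 62 under median centring. The labels pair no mice, because the groups share no replicate number. Each of 4 slides held a mouse of both groups, and differences within these slides were read for their sign only. Slide was also fitted as a block (14 calls as a fixed block).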

Other observations

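On the scanner software's processed signals, which carry no offset, 28 further genes passed the threshold at 25 mg/kg/day, all higher. The values of 5 of them are given here, with no test of a theme. The kinetochore genes Ska1, Spc25 and Nuf2 differed by 1.49 ± 0.18, 1.36 ± 0.20 and 1.07 ± 0.20 there, against -0.03 ± 0.18, -0.09 ± 0.16 and 0.19 ± 0.17 with the offset of 50. Rrm2, a subunit of ribonucleotide reductase, differed by 0.93 ± 0.17 against 0.06 ± 0.19, and Ccna2, cyclin A2, by 0.84 ± 0.16 against 0.39 ± 0.16. The median of the proliferation list was 0.35 there, 0.16 with an offset of 10 and 0.07 with the offset of 50. The probe of Ska1 was well above background on 0 of the 5 control arrays and 4 of the 5 treated arrays, and that of Spc25 on 1 and 5. The control spots of Ska1 and Spc25 were thus mostly near background. The probe of Rrm2 was well above background on 4 and 5 of these arrays, and that of Ccna2 on 5 and 5. These genes were chosen after their values were seen, and the cause of the difference between the signals was not tested.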
